A study of Homo sapiens with 12 samples.

Results

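The question here was whether 2 pancreatic cancer cell lines responded differently when the gel around them was made more concentrated. For each gene, the change from 5% to 7.5% GelMA in BXPC3 was subtracted from the same change in PANC1, so a positive difference means that the gene went up more, or down less, in PANC1. The comparison used the 8 GelMA libraries of the 12 in the series, 2 in each of 4 groups. Of 16299 genes, 12817 reached 1 RPKM (reads per kilobase of gene, scaled to library size) in at least 2 GelMA libraries of each line and were tested, and 3482 were not. NID2 and ACTA2 passed with a second-highest PANC1 value of 0.001 log2 RPKM, while FLI1 and HS3ST3B1 stayed outside with -0.001.

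BXPC3 and PANC1 are established lines of human pancreatic ductal adenocarcinoma. GelMA is gelatin carrying methacryloyl groups, which can be cross-linked into a hydrogel. Cells of both lines were grown in high glucose medium with serum and then held in 5% GelMA, 7.5% GelMA or collagen, and the collagen libraries are used below only for reference levels. Each line stands for 1 genetic background, so a difference between them cannot be told apart from any of the many other differences between these lines. The labels do not state how stiff the gels were, how they were cross-linked, how long the cells stayed in them, or whether replicates were separate cultures. What the p-values weigh is the spread among these libraries, and part of it may be technical. Sequencing depth is unknown.

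A denser gel can be stiffer, leave less room for spreading and slow the diffusion of oxygen, nutrients and secreted factors. Cells read low oxygen through hypoxia-inducible factors, which switch on glycolysis and vessel-forming factors. They read sterol shortage through SREBP factors, which switch on lipid synthesis, and they read amino acid shortage and misfolded protein through ATF4. Interferon-stimulated genes answer to STAT and IRF factors, and YAP with TEAD factors answers to spreading and tension. These links are background, and none was measured here.

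PANC1 changed with GelMA percentage and BXPC3 changed less. In PANC1, 3441 genes (26.8%) were called between 7.5% and 5% GelMA by limma at an adjusted p under 0.05, with 1762 higher (13.7%) and 1679 lower (13.1%) at 7.5%. In BXPC3, 16 genes (0.125%) were called, 5 higher (0.039%) and 11 lower (0.0858%). An unadjusted limma p under 0.05 was found for 1673 genes (13.1%) in BXPC3, so few calls do not show that it stayed unchanged. The difference between the lines was called for 1898 genes (14.8%). This difference, which compares changes and not levels, was positive for 902 (7.04%, called higher) and negative for 996 (7.77%, called lower). The size was at least 2-fold for 103 of the higher and 122 of the lower genes.

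Most called differences came from movement in PANC1. Of the 1898 genes, 920 were called lower in PANC1 with no call in BXPC3, and 796 were called higher in PANC1 with no call in BXPC3. The PANC1 effect was the larger one in size for 1737 of them. Their median size was 0.367 log2 in PANC1 and 0.0831 in BXPC3. Another 96 higher and 75 lower genes were called for the difference without a call in either line. Over all tested genes, the median size of the effect was 0.127 in PANC1 and 0.0666 in BXPC3, each with a median standard error (SE) of 0.0667, and across genes the effects of the lines had a Pearson r of -0.0032 and a Spearman rho of -0.0052. Genes are not independent replicates, and these coefficients are descriptions.

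**Figure D1:**
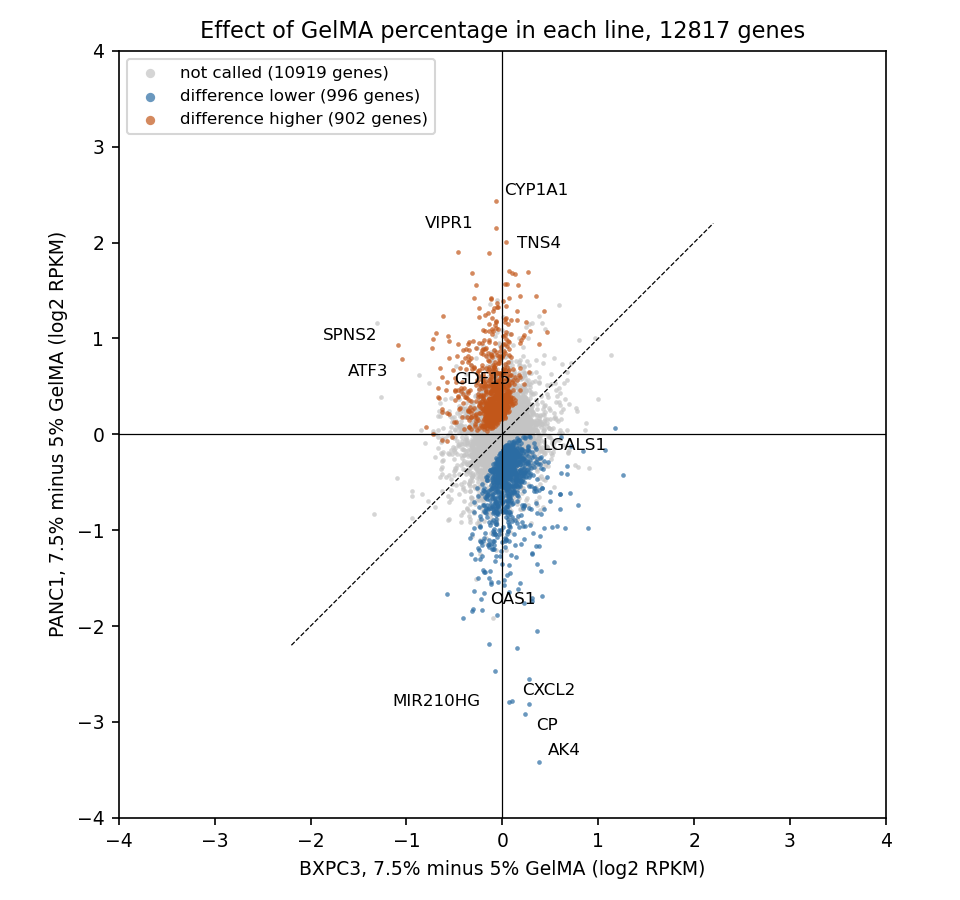
Each point is 1 of 12817 tested genes, with the BXPC3 effect (7.5% minus 5% GelMA, log2) on the horizontal axis and the PANC1 effect on the vertical axis; the dashed line marks equal effects. The cloud is taller than it is wide, and the called genes (902 higher in orange, 996 lower in blue) lie mainly above and below the centre, not to its sides.

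The number of calls depended on single libraries, since each group had 2. It was 989 without replicate 1 and 1006 without replicate 2 of PANC1 at 5%, 1173 without replicate 2 of PANC1 at 7.5%, and 1021 and 1243 without replicates 1 and 2 of BXPC3 at 7.5%. The BXPC3 count of 16 rose to 181 without replicate 2 at 5% and was 0 without replicate 1 at 5%. These libraries lay apart on the leading component of the BXPC3 GelMA libraries, at -13.4 for replicate 1 and -1.8 for replicate 2 at 5%.

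The line labels matched known markers. SMAD4, which is deleted in BXPC3, lay between -5.57 and -5.35 log2 RPKM in the BXPC3 GelMA libraries and between 3.94 and 4.27 in PANC1. The epithelial adhesion gene CDH1 was at 8.22 to 8.35 in BXPC3 and 4.52 to 4.86 in PANC1, and the mesenchymal filament gene VIM at 5.08 to 5.21 and 11.65 to 11.93. Of markers of other cell types, 6 of 12 fibroblast, 4 of 9 endothelial, 3 of 13 immune and 1 of 13 acinar or endocrine genes were in the table, and the others were not analysed here. In these bulk libraries, fewer cells of a kind and less RNA per cell cannot be told apart.

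The genes with the lowest differences were led by AK4, a mitochondrial adenylate kinase induced by hypoxia (ENSG00000162433, chr1:65147549-65232145, GRCh38). AK4 stood at 4.74 and 4.73 log2 RPKM in PANC1 at 5% and at 1.20 and 1.44 at 7.5%. In BXPC3 it stood at 3.88 and 3.84 at 5% and at 4.32 and 4.17 at 7.5%. The PANC1 groups were far apart and the BXPC3 groups, also without overlap, lay the other way. The BXPC3 effect of 0.39 was not called (limma adjusted p = 0.169). AK4 fell 10.6-fold in PANC1, and the difference was -3.80 ± 0.13 log2 (SE, adjusted p = 1.64e-05). Its processed pseudogene AK4P3, which shares sequence with it so that reads of the 2 may be mixed, had a difference of -3.09 ± 0.24.

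CP, the gene of the copper-carrying ferroxidase ceruloplasmin (chr3:149162410-149222055), was at 4.18 and 4.37 in PANC1 at 5% and at 1.46 and 1.26 at 7.5%. BXPC3 had it at 5.68 and 6.25, then 6.33 and 6.09, and those groups overlapped. The difference was -3.15 ± 0.24 (adjusted p = 0.000233). CXCL2, a neutrophil-attracting chemokine (chr4:74097035-74099293), was at 3.18 and 3.0 in PANC1 at 5% and at 0.42 and 0.19 at 7.5%. Its BXPC3 values, 4.68 and 4.53 at 5% and 4.81 and 4.58 at 7.5%, overlapped. The CXCL2 fall in PANC1 was 6.89-fold, with a difference of -2.88 ± 0.17 (adjusted p = 7.81e-05), and of -2.18 on a log2(RPKM + 1) scale.

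MIR210HG, the host transcript of the hypoxia-induced microRNA miR-210 (chr11:565660-568457), fell from 4.53 and 4.35 to 1.68 and 1.61 in PANC1. It was at 2.66 and 2.87 and then 2.82 and 2.86 in BXPC3, with overlap. The difference was -2.87 ± 0.14 (adjusted p = 4.39e-05). The other genes of this group were PPP1R3G, a glycogen-targeting subunit of protein phosphatase 1 (-2.39 ± 0.28, and -1.59 on a log2(RPKM + 1) scale), the aldolase gene ALDOC (-2.38 ± 0.16), the lipoprotein lipase inhibitor gene ANGPTL4 (-2.05 ± 0.10) and the calcium channel gene ITPR1 (-2.05 ± 0.14). RF01972 (-2.02 ± 0.23) is a short RNA annotated on the opposite strand within H19, and the strand setting of the counting is not given, so its reads and those of H19 (-1.82 ± 0.23) cannot be told apart.

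The highest difference was in CYP1A1, a xenobiotic-metabolising cytochrome P450 (ENSG00000140465, chr15:74719542-74725610). CYP1A1 was at 1.13 and 0.42 log2 RPKM in PANC1 at 5% and at 3.18 and 3.23 at 7.5%. The BXPC3 libraries were at 3.19 and 2.89 at 5% and at 2.73 and 3.22 at 7.5%. The PANC1 libraries at 7.5% thus reached the BXPC3 level, where the groups overlapped. The difference was 2.49 ± 0.34 (adjusted p = 0.00284).

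VIPR1, a receptor for vasoactive intestinal peptide (chr3:42489299-42537573), rose in PANC1 from 0.76 and 0.17 to 2.45 and 2.80. BXPC3 held it at 4.26 and 4.16 and then at 4.06 and 4.23. The difference was 2.22 ± 0.27 (adjusted p = 0.00172), and 1.64 on a log2(RPKM + 1) scale. TNS4, a focal adhesion adaptor (chr17:40475828-40501597), rose in PANC1 from 1.13 and 0.59 to 3.14 and 2.61, against 7.80 and 7.94 and then 7.91 and 7.91 in BXPC3, with a difference of 1.97 ± 0.27. CEMIP, which takes part in hyaluronan breakdown, rose from 2.1 and 2.07 to 3.87 and 3.71 in PANC1, with a difference of 1.64 ± 0.12 (adjusted p = 0.000230).

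SPNS2, which exports sphingosine-1-phosphate, had effects of opposite sign in the lines, called in PANC1 only. It went from 3.26 and 2.82 to 3.85 and 4.11 in PANC1 and from 1.58 and 1.71 to 0.59 and 0.51 in BXPC3, where the adjusted p was 0.0597. The difference was 2.03 ± 0.23 (adjusted p = 0.00112), and 1.60 on a log2(RPKM + 1) scale. Also among the 10 highest of the genes that reached a group mean of 3 RPKM in each line were the guanine deaminase gene GDA (1.83 ± 0.15), ATF3 (1.83 ± 0.16), PARM1 (1.54 ± 0.26), LINC00622 (1.58 ± 0.43) and FGFBP1, an FGF carrier (1.54 ± 0.39). The calls of LINC00622 and FGFBP1 were lost without 1 library for 6 and 5 of the 8 libraries, with adjusted p up to 0.118 and 0.113.

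In 6 genes the lines moved in opposite directions with a call in each. The BXPC3 calls named here and below are those of the main fit. In BXPC3, 0 genes were called in the fit over all 12 libraries, without the mean-variance trend or with a block for replicate number. ATF3, a stress-induced transcription factor (chr1:212565334-212620777), was at 3.64 and 3.53 in PANC1 at 5% and at 4.30 and 4.44 at 7.5%. In BXPC3 it fell from 1.89 and 1.69 to 0.82 and 0.68. GDF15, a stress-induced cytokine, rose from 7.91 and 7.83 to 8.30 and 8.36 in PANC1 and fell from 7.24 and 7.0 to 6.54 and 6.53 in BXPC3. In both genes, no 2 groups of a line overlapped and the lines parted further at 7.5%.

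The kinase gene PIM1 showed the same arrangement, with a PANC1 effect of 0.49 and a BXPC3 effect of -0.43, as did the epithelial factor gene GRHL3 (0.24 and -0.63) and MYADM (0.24 and -0.35). LGALS1, which encodes the secreted lectin galectin-1, went the other way: it fell from 9.81 and 9.82 to 9.61 and 9.56 in PANC1 and rose from 7.22 and 7.27 to 7.54 and 7.61 in BXPC3. The LGALS1 difference was -0.56 ± 0.05 (adjusted p = 0.000397). CYP1B1 and EPHB6 rose in both lines and more in PANC1, with effects of 1.29 and 0.43 for CYP1B1 and 0.94 and 0.39 for EPHB6. GPRC5A, ABCC3 and PARD6B fell in BXPC3, by 0.40, 0.28 and 0.53, with no call in PANC1 and a called difference of 0.45, 0.37 and 0.50. The GPRC5A call was lost in the fit of all 12 libraries (adjusted p = 0.0509), and that of PARD6B without replicate 1 of BXPC3 at 7.5%, of PANC1 at 5% or of PANC1 at 7.5% (adjusted p up to 0.0573).

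In the main fit, 5 genes were called in both lines in the same direction with no called difference. Their BXPC3 calls were also lost in the fit over all 12 libraries, without the mean-variance trend and with a block for replicate number. COL5A1, a fibrillar collagen chain, had an effect of 0.42 in PANC1 and 0.47 in BXPC3, and ODC1, the first enzyme of polyamine synthesis, of 0.15 and 0.29. TM4SF1 (-0.31 and -0.37), TNFRSF21 (-0.20 and -0.24) and C15orf48 (-0.87 and -0.95) fell in both. A missed threshold for the difference does not show that these responses were equal.

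**Figure D2:**
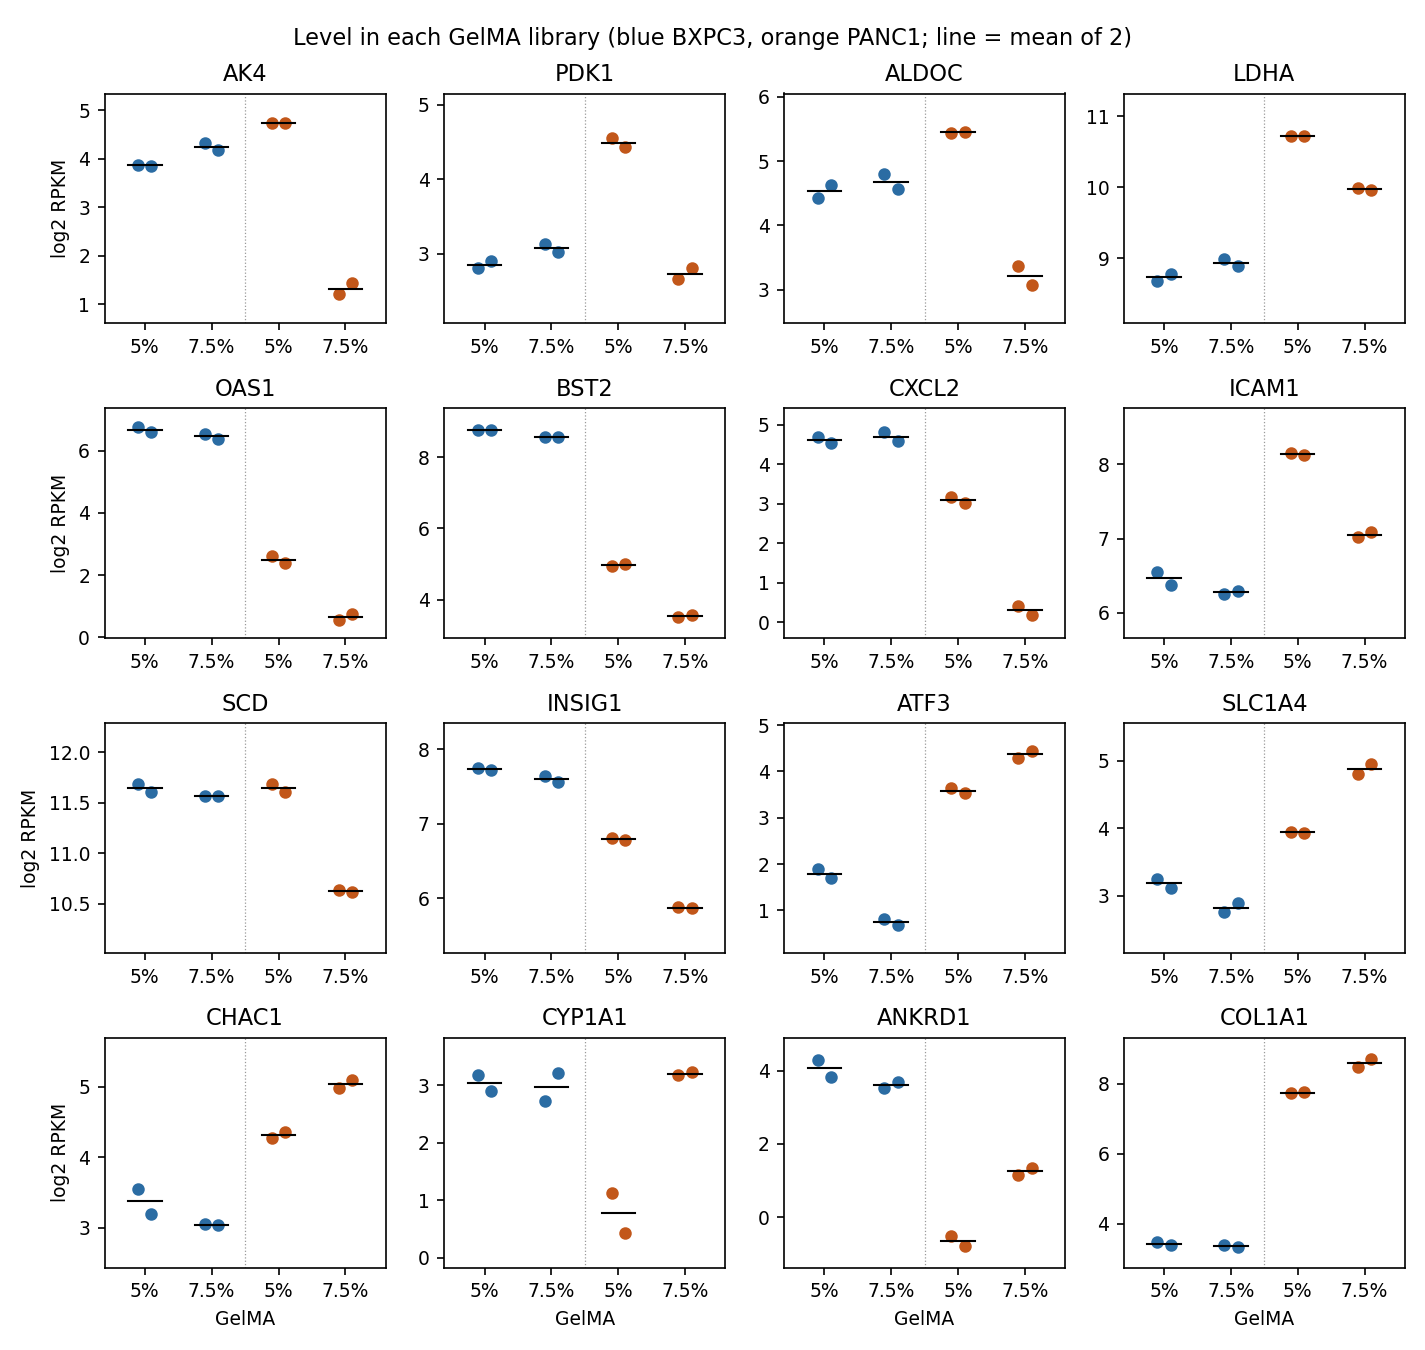
Level of 16 named genes in the 8 GelMA libraries (log2 RPKM; points are libraries, bars the mean of 2; blue BXPC3, orange PANC1; each panel has its own scale, not starting at 0). The orange pairs separate by percentage in every panel. The blue pairs lie nearer to each other than the orange ones except in ATF3, where BXPC3 falls (-1.04) by more than PANC1 rises (0.78).

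The gene lists below are described by how many members were called for the difference, to be read against the background of 7.77% lower and 7.04% higher over all tested genes, and by their median, where all tested genes had 0.00396. The lists overlap in some members, such as P4HA1 and P4HA2 (hypoxia and cross-linking), SLC7A11 (ATF4 and NRF2) and ME1 (fatty acids and NRF2).

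**Figure D3:**
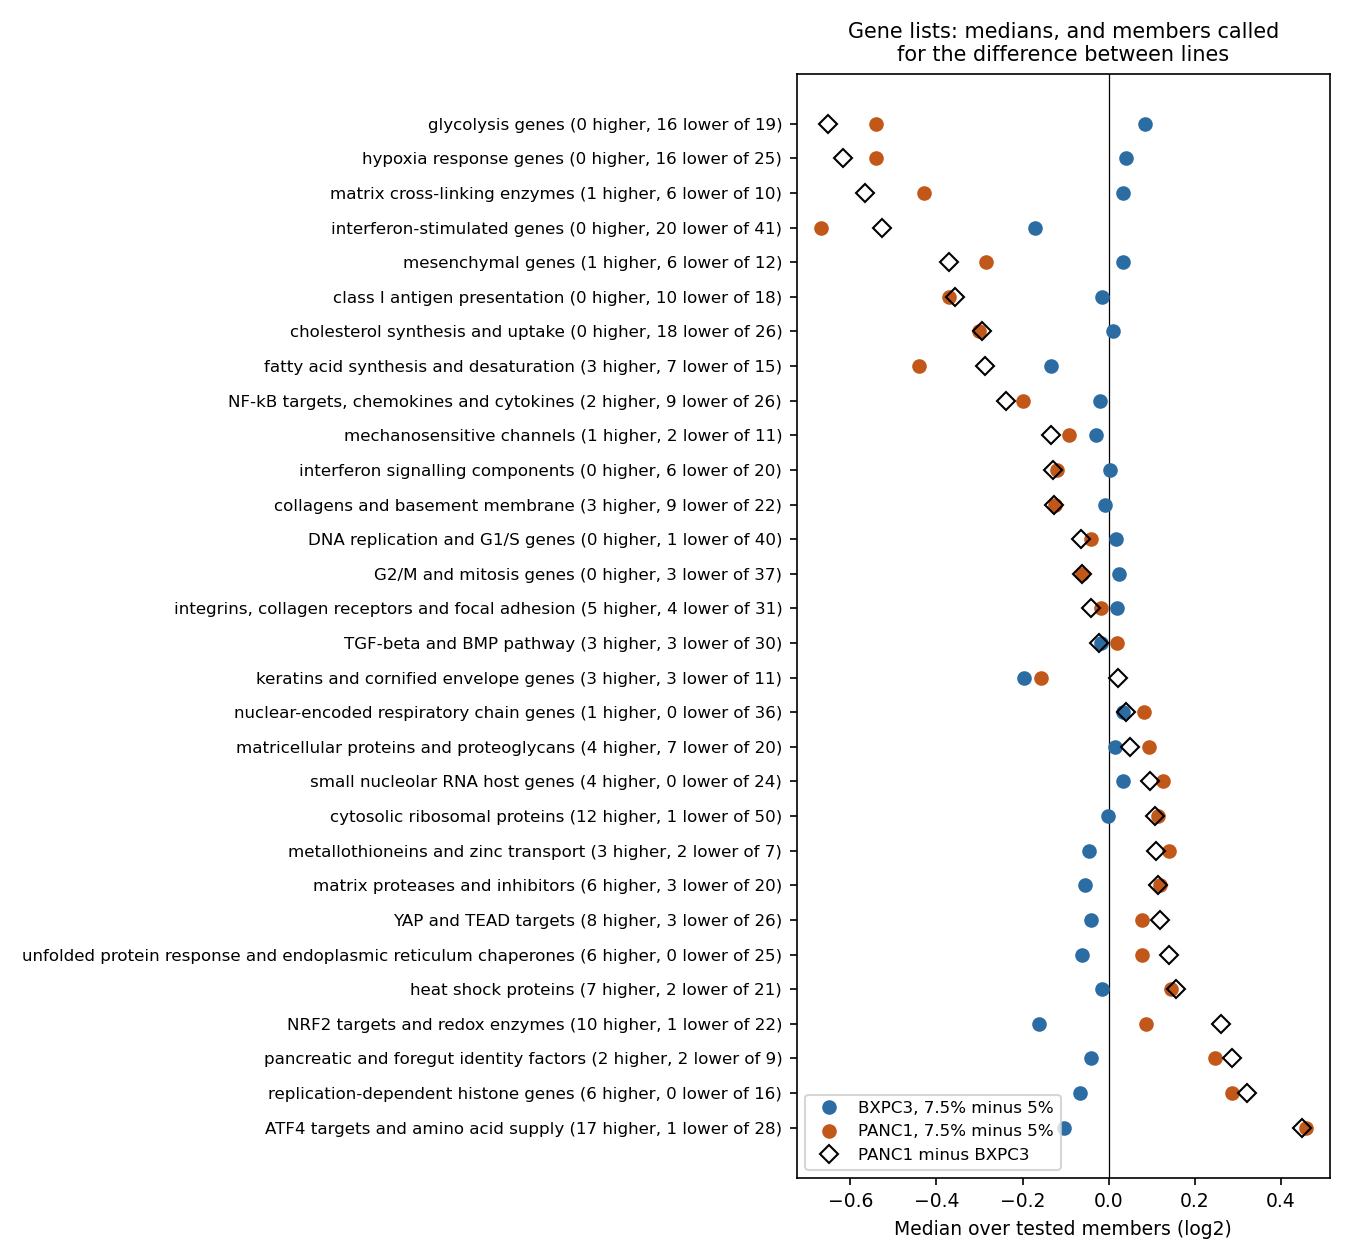
Medians over the tested members of each list of the effect in BXPC3 (blue), in PANC1 (orange) and of their difference (open diamonds), in log2, with the members called for the difference in brackets. Glycolysis has the lowest median difference (-0.65) and the ATF4 targets the highest (0.45), while the BXPC3 medians lie between -0.20 and 0.08.

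Hypoxia response genes mostly had negative differences. Of 25 tested, 16 were called lower and 0 higher, with a median difference of -0.62, a PANC1 median of -0.54 and a BXPC3 median of 0.04. PDK1, the kinase that keeps pyruvate out of mitochondria, was at 4.55 and 4.43 in PANC1 at 5% and at 2.67 and 2.80 at 7.5%, and at 2.80 and 2.90 and then 3.13 and 3.02 in BXPC3. The PANC1 level at 7.5% came down to that of BXPC3, and the difference was -1.98 ± 0.12 (adjusted p = 0.000105). PFKFB4, a glycolytic switch enzyme, had a difference of -1.84 ± 0.15, NDRG1 of -1.54 ± 0.13 and VEGFA, the vessel growth factor gene, of -0.49 ± 0.05.

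Other hypoxia genes had no called difference. DDIT4, an mTOR inhibitor, was at 8.72 and 8.80 and then 8.73 and 8.73 in PANC1 (difference 0.26 ± 0.08, adjusted p = 0.0680). ADM, which encodes the vasodilator adrenomedullin, was at 8.91 and 8.84 and then 8.85 and 8.76 (difference 0.14 ± 0.14, adjusted p = 0.525). In PANC1, the glucose transporter gene SLC2A1 had an effect of 0.32 and the carbonic anhydrase gene CA12 of 0.54, the 2 hypoxia genes called higher there. The levels of the oxygen-sensing factor genes HIF1A (0.18 ± 0.08, adjusted p = 0.152) and EPAS1 (0.09 ± 0.06, adjusted p = 0.379) had no called difference. HIF1A was called without replicate 2 of BXPC3 at 5% (adjusted p = 0.0236), and SLC2A1 without replicate 1 of PANC1 at 7.5% (adjusted p = 0.0108).

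Glycolysis had the largest share of called members among the lists described: 16 of 19 were lower and 0 higher. The median difference was -0.65. LDHA, which makes lactate, was at 10.72 in both PANC1 libraries at 5% and at 9.99 and 9.96 at 7.5%, and at 8.68 and 8.78 and then 8.99 and 8.88 in BXPC3. The groups did not overlap in either line, but the BXPC3 effect of 0.21 was not called (limma adjusted p = 0.139). The difference was -0.95 ± 0.06 (adjusted p = 0.000118). PGK1, a glycolytic kinase, fell from 9.26 and 9.28 to 8.34 and 8.41 in PANC1, with a difference of -1.0 ± 0.05. ENO2 (-1.28 ± 0.09) and GPI (-0.75 ± 0.06) also had lower differences, while PFKM (-0.15 ± 0.09, adjusted p = 0.316) and the lactate transporter gene SLC16A1 (-0.21 ± 0.10, adjusted p = 0.213) were not called.

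Nuclear-encoded respiratory chain genes had 1 called higher and 0 lower of 36, with a median of 0.04. The called gene was NDUFA4 (0.29 ± 0.08), whose call was lost without 7 of the 8 libraries in turn (adjusted p up to 0.153).

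Collagen levels give the hypoxia list a reference. Relative to 5% GelMA, its mean over 25 genes was 1.62 and 1.60 higher in the PANC1 collagen libraries, and its values at 7.5% were -0.737 and -0.748 on the same log2 scale. In BXPC3 it was 0.908 and 1.34 higher in collagen, and 0.065 and 0.012 higher at 7.5%. The PANC1 means thus stepped down from collagen through 5% to 7.5%, whereas those of BXPC3 dropped once and stayed.

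The core that hypoxia-inducible factors bind was looked for in the promoters of these genes (RefSeq, GRCh38.p14, 250 bases before to 50 after the gene start). ACGTG on either strand was in 9 of 21 matched hypoxia members (42.9%) and in 8 of 18 glycolysis members (44.4%), against 27.2% of the promoters of tested genes and 21.6% of all 27305 promoters. A CACGTG counts on both strands. A match is a description of letters, not a bound site. The promoters of AK4 (chr1:65147302-65147601, plus strand), ANKRD37 (chr4:185396591-185396890, plus strand), an ankyrin repeat gene induced by hypoxia, and ANGPTL4 (chr19:8363905-8364204, plus strand) are printed because these genes had some of the lowest differences among members with a match; capitals mark the matches.
AK4 promoter: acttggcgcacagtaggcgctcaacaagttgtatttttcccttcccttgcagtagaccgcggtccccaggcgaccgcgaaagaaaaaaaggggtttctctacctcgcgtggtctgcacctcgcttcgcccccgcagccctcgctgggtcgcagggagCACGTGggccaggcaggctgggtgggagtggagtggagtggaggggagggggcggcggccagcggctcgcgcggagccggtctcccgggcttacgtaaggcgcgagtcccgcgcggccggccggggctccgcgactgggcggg
ANKRD37 promoter: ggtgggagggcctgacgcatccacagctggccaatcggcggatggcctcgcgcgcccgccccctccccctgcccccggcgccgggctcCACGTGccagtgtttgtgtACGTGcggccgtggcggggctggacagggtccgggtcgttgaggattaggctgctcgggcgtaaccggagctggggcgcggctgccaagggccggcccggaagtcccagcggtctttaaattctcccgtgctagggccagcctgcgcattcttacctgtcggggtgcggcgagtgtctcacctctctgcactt
ANGPTL4 promoter: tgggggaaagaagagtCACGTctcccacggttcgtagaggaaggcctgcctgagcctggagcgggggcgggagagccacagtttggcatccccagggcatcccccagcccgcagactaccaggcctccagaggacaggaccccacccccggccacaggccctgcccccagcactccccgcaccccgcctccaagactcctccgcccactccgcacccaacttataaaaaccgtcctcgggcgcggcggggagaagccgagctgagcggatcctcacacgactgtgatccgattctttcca

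ANKRD37 had a difference of -1.51 ± 0.20 (adjusted p = 0.00275). AK4 and ANKRD37 hold the palindrome CACGTG, and ANKRD37 has a further match after it, whereas the match in ANGPTL4 lies near the beginning of its window, on the reverse strand.

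Enzymes that modify and cross-link collagen were mostly lower: 6 of 10 lower and 1 higher, with a median difference of -0.57. TGM2, tissue transglutaminase, which joins proteins of the matrix, was at 5.78 and 5.88 in PANC1 at 5% and at 4.36 and 4.31 at 7.5%. In BXPC3 it was at 9.15 and 8.94 and then 8.74 and 8.84. It fell in PANC1, while the BXPC3 effect of -0.25 was not called (adjusted p = 0.194), and the difference was -1.24 ± 0.10 (adjusted p = 0.000233). The prolyl hydroxylase genes P4HA1 (-1.14 ± 0.07) and P4HA2 (-0.72 ± 0.07), the lysyl hydroxylase gene PLOD2 (-0.71 ± 0.06) and the lysyl oxidase gene LOXL2 (-0.65 ± 0.09) followed. P4HA1, P4HA2 and PLOD2 are also known as hypoxia-induced genes. No member was called higher without replicate 1 of BXPC3 at 7.5% or any 1 PANC1 library, nor in the fit over all 12 libraries, and 2 were without replicate 2 of BXPC3 at 5%.

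Interferon-stimulated genes mostly had negative differences. Of 41 tested, 37 were called lower in PANC1 and 0 in BXPC3, and 20 were called lower for the difference with 0 higher. The median was -0.67 in PANC1, -0.17 in BXPC3 and -0.53 for the difference. The count of 20 was 12 without replicate 1 of PANC1 at 5% and 13 without replicate 1 of BXPC3 at 7.5%.

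OAS1, which senses double-stranded RNA (chr12:112906777-112933222), was at 2.60 and 2.38 in PANC1 at 5% and at 0.57 and 0.75 at 7.5%. BXPC3 had it at 6.76 and 6.59 and then 6.54 and 6.37. The difference was -1.62 ± 0.15 (adjusted p = 0.000503), and -1.15 on a log2(RPKM + 1) scale. MX1, an antiviral GTPase, went from 3.49 and 3.43 to 1.34 and 1.90 in PANC1, with the 7.5% libraries wider apart than those at 5%, and from 5.68 and 5.44 to 5.51 and 4.99 in BXPC3, with overlap. The MX1 difference was -1.53 ± 0.29 (adjusted p = 0.0112).

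BST2, the virus-tethering protein tetherin, had tight replicates in both lines. It was at 4.93 and 5.01 in PANC1 at 5% and at 3.51 and 3.56 at 7.5%, and at 8.77 in both BXPC3 libraries at 5% and 8.57 in both at 7.5%. Its difference was -1.24 ± 0.05 (adjusted p = 3.83e-05). IFI6 (-1.47 ± 0.15) and XAF1 (-1.30 ± 0.13) were the other members with the lowest called differences.

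Some of the best known members had no called difference. ISG15, a ubiquitin-like protein, was at 5.24 and 5.20 and then 4.68 and 4.99 in PANC1, and at 6.57 and 6.48 and then 6.46 and 6.22 in BXPC3 (difference -0.21 ± 0.15, adjusted p = 0.389). IFIT1, which binds foreign RNA, had -0.41 ± 0.24 (adjusted p = 0.296). PARP14 (-0.37 ± 0.12, adjusted p = 0.0770) and IFIT2 (-0.68 ± 0.25, adjusted p = 0.111) were the most abundant of the members without a call. In each of these 4 genes both lines had negative effects.

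Against the collagen libraries, the interferon list behaved unlike the hypoxia list. Relative to 5% GelMA, its PANC1 mean was -0.914 and -0.943 in collagen and -0.905 and -0.665 at 7.5% on the log2 scale. The BXPC3 mean was 0.13 and 0.309 in collagen and -0.097 and -0.263 at 7.5%. Within PANC1 the 5% libraries were therefore the high group, and those in 7.5% GelMA lay near the collagen level.

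The interferon-stimulated response element, searched as GAAA, any 2 bases and GAAA on both strands, was in the promoters of 23 of 32 matched members (71.9%), against 2.73% for tested genes and 3.65% for all promoters. Among the matched members with a called difference it was in 12 of 18. The promoters of IFI6 (chr1:27672143-27672442, minus strand), BST2 (chr19:17405581-17405880, minus strand), IFITM1 (chr11:313790-314089, plus strand), which blocks virus entry, and MX1 (chr21:41420308-41420607, plus strand) are printed. These 4 had the lowest differences among the called members with a match. Each is written along the gene's own strand, with matches in capitals.
IFI6 promoter: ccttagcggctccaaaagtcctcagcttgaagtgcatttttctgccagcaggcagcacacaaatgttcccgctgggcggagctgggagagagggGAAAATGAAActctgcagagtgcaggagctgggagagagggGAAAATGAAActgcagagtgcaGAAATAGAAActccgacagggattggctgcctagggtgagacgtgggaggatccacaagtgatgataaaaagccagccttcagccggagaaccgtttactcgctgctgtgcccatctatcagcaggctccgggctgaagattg
BST2 promoter: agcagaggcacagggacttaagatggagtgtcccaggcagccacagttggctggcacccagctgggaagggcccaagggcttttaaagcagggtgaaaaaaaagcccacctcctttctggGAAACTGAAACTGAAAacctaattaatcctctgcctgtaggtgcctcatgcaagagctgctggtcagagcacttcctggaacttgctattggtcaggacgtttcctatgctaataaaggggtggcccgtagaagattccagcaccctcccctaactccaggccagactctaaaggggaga
IFITM1 promoter: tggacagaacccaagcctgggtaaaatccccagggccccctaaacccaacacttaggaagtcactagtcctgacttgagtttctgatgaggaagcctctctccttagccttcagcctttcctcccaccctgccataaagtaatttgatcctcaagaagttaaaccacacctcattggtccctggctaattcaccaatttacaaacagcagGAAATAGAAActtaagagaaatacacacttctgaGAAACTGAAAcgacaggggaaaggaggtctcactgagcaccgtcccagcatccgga
MX1 promoter: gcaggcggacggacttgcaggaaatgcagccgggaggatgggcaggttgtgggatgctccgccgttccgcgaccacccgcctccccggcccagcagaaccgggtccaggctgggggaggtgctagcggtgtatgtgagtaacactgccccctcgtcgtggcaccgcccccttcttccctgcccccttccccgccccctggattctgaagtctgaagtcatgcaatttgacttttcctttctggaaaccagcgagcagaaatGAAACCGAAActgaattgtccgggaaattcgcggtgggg

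IFI6 has 3 matches, 2 of them within a repeated stretch of its sequence. The 2 matches of BST2 overlap, those of IFITM1 stand apart, and the only one of MX1 lies after the annotated start. IFITM1 had a difference of -1.04 ± 0.14 (adjusted p = 0.00275).

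Components of interferon signalling showed a smaller shift. Of 20 tested, 6 were called lower and 0 higher, with a median difference of -0.13. SOCS3, a feedback inhibitor of JAK and STAT signalling, went from 6.4 and 6.34 to 5.39 and 5.33 in PANC1 and was at 4.47 and 4.38 and then 4.38 and 4.27 in BXPC3 (difference -0.91 ± 0.08, adjusted p = 0.000455). The factor gene IRF1 (-0.53 ± 0.06), the DNA-sensing adaptor gene STING1 (-0.45 ± 0.07) and STAT3 (-0.28 ± 0.05) followed. IRF3 (-0.15 ± 0.04, adjusted p = 0.0588) and MAVS (-0.14 ± 0.05, adjusted p = 0.0891) were not called.

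Class I antigen presentation had 10 of 18 members called lower and 0 higher, with a median difference of -0.36. The count was 5 or 6 without replicate 1 or 2 of BXPC3 at 7.5%, replicate 1 of PANC1 at 5% or replicate 2 of PANC1 at 7.5%. ERAP2, which trims peptides, went from 5.01 and 5.02 to 4.35 and 4.25 in PANC1 and was at 7.03 in both BXPC3 libraries at 5% and at 6.99 and 6.98 at 7.5% (difference -0.67 ± 0.06, adjusted p = 0.000397). The immunoproteasome genes PSMB9 (-0.73 ± 0.11) and PSMB8 (-0.60 ± 0.08) were lower as well. PSMB9 and PSMB8 overlap on opposite strands, and the strand setting is not given, so some of their reads may be mixed. CD74, the invariant chain known from class II presentation, had -1.01 ± 0.25, a call lost without 6 of the 8 libraries in turn (adjusted p up to 0.113). The light chain gene B2M (-0.12 ± 0.06, adjusted p = 0.249) was not called.

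Among NF-kB targets, chemokines and cytokines, 9 of 26 were lower and 2 higher, with a median difference of -0.24. The neutrophil-attracting chemokines led this group with CXCL2 (above) and CXCL1 (-1.35 ± 0.14). CXCL5 had -1.44 ± 0.24, but in PANC1 it reached 1 RPKM only in the 5% libraries, where it was higher, and on a log2(RPKM + 1) scale its difference was -0.67. CXCL1 went from 7.01 and 6.93 to 5.94 and 5.93 in PANC1 and from 5.89 and 6.23 to 6.30 and 6.46 in BXPC3. ICAM1, an adhesion molecule for leukocytes, fell from 8.16 and 8.12 to 7.03 and 7.08 in PANC1 and was at 6.55 and 6.38 and then 6.25 and 6.30 in BXPC3 (difference -0.90 ± 0.08, adjusted p = 0.000397). The direct feedback genes NFKBIA (-0.08 ± 0.07, adjusted p = 0.488) and NFKB2 (0.14 ± 0.06, adjusted p = 0.160) had no called difference. The count of 2 higher was 0 or 1 without any 1 library other than replicate 2 of BXPC3 at 5% and replicate 2 of BXPC3 at 7.5%, and 1 in the fit over all 12 libraries.

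Cholesterol synthesis and uptake genes mostly had negative differences, with 18 of 26 called lower, 0 higher and a median difference of -0.29. INSIG1, which holds SREBP in the endoplasmic reticulum and is itself an SREBP target, was at 6.81 and 6.78 in PANC1 at 5% and at 5.88 and 5.86 at 7.5%. The BXPC3 libraries were at 7.75 and 7.72 and then 7.64 and 7.56. The difference was -0.78 ± 0.05 (adjusted p = 0.000166). The groups were separate in both lines, but the BXPC3 effect of -0.14 was not called (limma adjusted p = 0.197).

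HMGCS1, which acts early in sterol synthesis, had effects of opposite sign: it went from 6.82 and 6.76 to 6.37 and 6.4 in PANC1, and from 8.51 and 8.68 to 8.80 and 8.84 in BXPC3, where the effect was not called (adjusted p = 0.167). The difference was -0.63 ± 0.08 (adjusted p = 0.00172). HSD17B7, a later enzyme of the pathway, had a difference of -0.61 ± 0.08, and TM7SF2, a sterol reductase gene, was not called (-0.16 ± 0.09, adjusted p = 0.278).

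The count of 18 was 11 without replicate 1 or 2 of PANC1 at 5% or replicate 2 of BXPC3 at 7.5%, and 10 in the fit over all 12 libraries. Relative to 5% GelMA, the PANC1 mean of the list was -0.604 and -0.726 in collagen and -0.343 and -0.354 at 7.5% on the log2 scale. That of BXPC3 was -0.428 and -0.629 in collagen and -0.008 and -0.014 at 7.5%. Both lines thus had their lowest values in collagen, and a drop at 7.5% was seen in PANC1.

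The sterol regulatory element core, searched as TCACNCCAC on both strands, was in 1 of 19 matched promoters (5.26%), against 1.06% for tested genes. The 1 gene was SREBF2, which encodes SREBP2, the main factor of cholesterol synthesis (chr22:41832855-41833154, plus strand), and its promoter is printed for that reason, with the match in capitals. SREBF2 itself went from 6.95 and 6.92 to 6.56 and 6.58 in PANC1 and was at 7.81 and 7.82 and then 7.83 and 7.86 in BXPC3 (difference -0.40 ± 0.04, adjusted p = 0.000992).
SREBF2 promoter: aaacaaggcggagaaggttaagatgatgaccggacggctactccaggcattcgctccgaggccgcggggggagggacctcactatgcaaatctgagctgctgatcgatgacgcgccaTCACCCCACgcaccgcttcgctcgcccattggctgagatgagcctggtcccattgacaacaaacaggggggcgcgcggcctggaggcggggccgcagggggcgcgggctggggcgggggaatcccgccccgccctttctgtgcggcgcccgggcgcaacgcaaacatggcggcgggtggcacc

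Fatty acid synthesis and desaturation genes divided, with 7 lower and 3 higher of 15 and a median difference of -0.29. The desaturases led: SCD, which makes monounsaturated fatty acids, was at 11.69 and 11.60 in PANC1 at 5% and at 10.63 and 10.61 at 7.5%. In BXPC3 it was at 11.69 and 11.60 and then at 11.56 in both libraries. The lines shared these 5% values, on a deposited scale that gives nearly the same value to each rank in every library. The SCD difference was -0.94 ± 0.06 (adjusted p = 7.86e-05), beside FADS2 (-0.93 ± 0.10) and FADS1 (-0.81 ± 0.04). FADS2 and FADS1 overlap on opposite strands, so some of their reads may be mixed too. FASN, the fatty acid synthase gene, had a PANC1 effect of -0.59 and a BXPC3 effect of -0.34 (difference -0.25 ± 0.07, adjusted p = 0.0557). The elongase gene ELOVL6 (0.68 ± 0.15) and ME1, which supplies NADPH (0.75 ± 0.18), had higher differences. The count of 7 was 4 without replicate 2 of PANC1 at 5%, and the calls of ELOVL6 and ME1 were lost without 4 and 6 of the 8 libraries in turn (adjusted p up to 0.0772 and 0.0893). In the fit over all 12 libraries 0 were higher, as without replicate 1 of BXPC3 at 7.5%, and 1 was higher without either PANC1 library at 5% or replicate 1 of PANC1 at 7.5%.

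ATF4 targets and amino acid supply genes mostly had positive differences. Of 28 tested, 17 were called higher and 1, CEBPB, lower, with a median difference of 0.45, a PANC1 median of 0.46 and a BXPC3 median of -0.105. SLC1A4, a transporter of alanine and serine (chr2:64988477-65023865), was at 3.95 and 3.93 in PANC1 at 5% and at 4.80 and 4.96 at 7.5%. BXPC3 had it at 3.24 and 3.12 and then 2.75 and 2.90. PANC1 rose. The BXPC3 values were lower at 7.5% without overlap, but that effect of -0.36 was not called (limma adjusted p = 0.166). The difference was 1.29 ± 0.12 (adjusted p = 0.000485).

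SLC7A11, the cystine importer, rose from 3.40 and 3.34 to 4.20 and 4.12 in PANC1 and was at 6.28 and 5.91 and then 5.81 and 5.71 in BXPC3 (difference 1.12 ± 0.15, adjusted p = 0.00272). CHAC1, which degrades glutathione, rose from 4.28 and 4.36 to 4.99 and 5.09 in PANC1 and was at 3.55 and 3.20 and then 3.06 and 3.03 in BXPC3 (difference 1.05 ± 0.15). The pseudokinase gene TRIB3 had a difference of 0.92 ± 0.15. Enzymes of serine synthesis and exchangers for large amino acids were among the called genes, with PSAT1 at 0.78 ± 0.07 and SLC7A5 at 0.83 ± 0.10, as was the factor gene DDIT3 (0.82 ± 0.09). ATF4 itself, which is known to be controlled mainly at translation, had 0.19 ± 0.06 (adjusted p = 0.0608), and the glutamine transporter gene SLC38A2 had 0.31 ± 0.11 (adjusted p = 0.0922). The CEBPB call was lost without replicate 1 of BXPC3 at 7.5% (adjusted p = 0.0531).

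The ATF4 list in the PANC1 collagen libraries was 0.944 and 1.02 higher than in 5% GelMA on the log2 scale, and 0.373 and 0.425 higher at 7.5%. For BXPC3 the values were -0.163 and -0.319 in collagen and -0.171 and -0.119 at 7.5%. The 5% group was thus the lowest in PANC1 and the highest in BXPC3.

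An element bound by ATF4 and its partners, searched as TGATGNAAN on both strands, was in 4 of 23 matched promoters (17.4%), against 1.5% for tested genes. Of the 23 matched members, 15 had a called difference, among them all 4 with the element. The promoters of ATF3 (chr1:212565157-212565456, plus strand) and CHAC1 (chr15:40953221-40953520, plus strand) are printed because these were the 2 with the highest differences, with matches in capitals. The match in CHAC1 is on the reverse strand.
ATF3 promoter: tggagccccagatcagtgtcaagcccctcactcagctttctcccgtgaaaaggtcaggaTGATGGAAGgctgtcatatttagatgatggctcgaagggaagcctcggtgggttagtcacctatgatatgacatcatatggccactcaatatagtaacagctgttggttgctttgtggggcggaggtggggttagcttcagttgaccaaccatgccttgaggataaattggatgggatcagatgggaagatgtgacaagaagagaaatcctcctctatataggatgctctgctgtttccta
CHAC1 promoter: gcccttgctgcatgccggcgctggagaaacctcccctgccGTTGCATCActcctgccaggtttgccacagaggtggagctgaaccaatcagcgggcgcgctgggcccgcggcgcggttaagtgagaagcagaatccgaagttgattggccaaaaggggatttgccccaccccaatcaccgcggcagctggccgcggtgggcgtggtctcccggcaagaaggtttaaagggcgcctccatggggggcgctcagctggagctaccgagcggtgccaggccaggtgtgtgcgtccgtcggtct

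**Figure D4:**
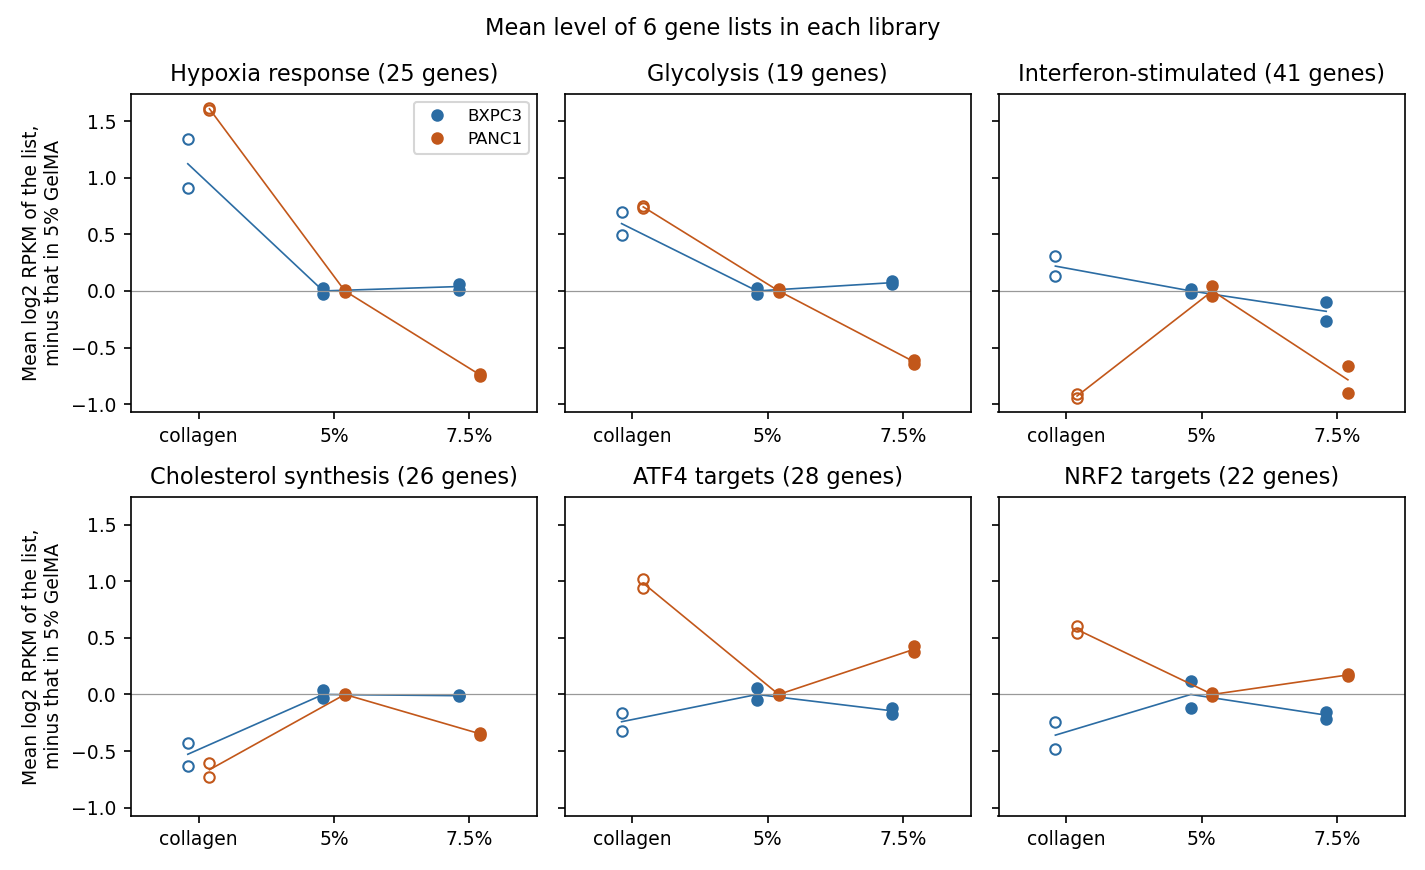
Mean log2 RPKM of 6 lists in each library, minus the mean of the 5% GelMA libraries of the same line (open points collagen, filled points GelMA, lines through group means; blue BXPC3, orange PANC1). In PANC1 the hypoxia list steps down from collagen through 5% to 7.5% GelMA, the interferon list peaks at 5%, and the ATF4 list is lowest at 5%. The filled blue points lie nearer to 0 than the filled orange points at 7.5% in the hypoxia, glycolysis, interferon, cholesterol and ATF4 lists.

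NRF2 targets and redox enzymes had 10 of 22 members called higher and 1 lower, with a median difference of 0.26. Here BXPC3 contributed, with a median of -0.16 against 0.09 in PANC1, though 1 of the 22 members was called in BXPC3. Relative to the mean at 5%, the BXPC3 list was at 0.122 and -0.121 in replicates 1 and 2 at 5%. At 7.5% it was at -0.213 and -0.152, so much of its fall depended on replicate 1 at 5%. NQO1, a quinone reductase, was at 6.67 and 6.62 and then 7.04 and 7.01 in PANC1, and at 7.49 and 7.03 and then 6.73 and 6.88 in BXPC3, where replicate 1 at 5% was the highest. The difference was 0.84 ± 0.18 (adjusted p = 0.0167). GCLC, the catalytic subunit of glutathione synthesis, had 0.66 ± 0.12, OSGIN1 0.93 ± 0.25 and GPX4, the lipid peroxide reductase and the 1 lower member, -0.24. The OSGIN1 call was lost without 7 of the 8 libraries in turn (adjusted p up to 0.136). The NQO1 call was lost without replicate 1 of BXPC3 at 7.5% or either PANC1 library at 5% (adjusted p up to 0.0679), and that of GPX4 in the fit over all 12 libraries (adjusted p = 0.278).

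The NRF2 count of 10 moved with single libraries. It was 17 without replicate 2 of BXPC3 at 5%, and 3 to 6 without replicate 1 or 2 of BXPC3 at 7.5% or any 1 PANC1 library. The antioxidant response element core, TGACNNNGC on either strand, was in 5 of 15 matched promoters (33.3%), against 15.3% for tested genes, and in 1 of the 7 matched members with a called difference.

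Genes of the unfolded protein response showed 6 higher and 0 lower of 25, with a median difference of 0.14. HSPA5, the main chaperone of the endoplasmic reticulum, was at 10.10 and 10.13 in PANC1 at 5% and at 10.37 and 10.42 at 7.5%, and at 10.27 and 10.16 and then 10.04 in both libraries in BXPC3 (difference 0.45 ± 0.06, adjusted p = 0.00187). WFS1, an endoplasmic reticulum membrane protein gene, had 0.62 ± 0.10. HSP90B1 (-0.07 ± 0.04, adjusted p = 0.285) and PDIA3 (-0.08 ± 0.04, adjusted p = 0.215) were not called. The count was 2 or 3 without replicate 1 or 2 of BXPC3 at 7.5% or any 1 PANC1 library.

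Heat shock protein genes had 7 higher and 2 lower of 21, and 2 to 4 higher without replicate 1 of BXPC3 at 7.5% or any 1 PANC1 library. HSPB8, a small heat shock protein, rose from 1.47 and 1.5 to 2.42 and 2.73 in PANC1 and was at 4.23 and 3.75 and then 3.80 and 3.96 in BXPC3 (difference 1.21 ± 0.23, adjusted p = 0.0117). Without replicate 1 of BXPC3 at 7.5% its adjusted p was 0.0521. HSPH1 (0.38 ± 0.06) and the mitochondrial chaperone gene HSPA9 (0.25 ± 0.04) were also higher, whereas the co-chaperone gene BAG3 was lower (-0.27 ± 0.05). The count of 2 lower was 1 without replicate 1 or 2 of BXPC3 at 7.5%, replicate 1 of PANC1 at 5% or replicate 1 of PANC1 at 7.5%.

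Cytosolic ribosomal protein genes had 12 higher and 1 lower of 50 by small amounts, with a median difference of 0.11. The count of 12 was 19 without replicate 2 of BXPC3 at 5% and 4 to 7 without replicate 1 or 2 of BXPC3 at 7.5% or any 1 PANC1 library. RPL38 went from 6.97 and 7.07 to 7.31 in both PANC1 libraries at 7.5% and was at 6.70 and 6.67 and then 6.67 and 6.62 in BXPC3 (difference 0.33 ± 0.06, adjusted p = 0.00773). RPS19 had 0.31 ± 0.05. The small nucleolar RNA host genes SNHG29 (0.43 ± 0.05) and SNHG5 (0.50 ± 0.09) were among 4 higher and 0 lower of 24, and 7 were higher without replicate 2 of BXPC3 at 5%.

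Replication-dependent histone genes, whose messages mostly lack poly-A tails, had 6 higher and 0 lower of 16 in these poly-A libraries. H1-2 went from 7.97 and 7.99 to 8.24 and 8.31 in PANC1 and from 8.03 and 8.08 to 7.81 in both libraries in BXPC3 (difference 0.54 ± 0.05, adjusted p = 0.000426). The histone genes are alike in sequence, so reads may be shared among them. Mitochondrially encoded genes had 2 higher and 0 lower of 13, MT-ND4L (0.50 ± 0.08) and MT-ND3 (0.23 ± 0.04). MT-CO1 was at 13.735 in every library, and MT-CO2 at 13.336 in BXPC3 and 12.902 in PANC1. The deposited scale gives nearly the same value to each rank, so genes that keep a top rank can show no change. The 11 without a call therefore do not show that these genes stayed level. MT-ND3 was at 11.829 in both PANC1 libraries at 7.5%, and such ties can lower its SE. In the fit over all 12 libraries the histone count was 3, and the calls of H1-2 (adjusted p = 0.0695) and MT-ND3 (adjusted p = 0.137) were lost. The MT-ND3 call was also lost without replicate 1 of PANC1 at 5% (adjusted p = 0.0538). The part of RNA quality in these results was not tested.

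Proliferation genes showed little difference. DNA replication genes had 0 higher and 1 lower of 40, with a median of -0.06, and mitosis genes had 0 higher and 3 lower of 37, with a median of -0.06. The background was 7.77% lower. The lower genes were TYMS (-0.31 ± 0.06), CDC25B (-0.49 ± 0.11), UBE2C (-0.37 ± 0.08) and CDCA3 (-0.35 ± 0.08), and these calls were lost without 1, 5, 4 and 6 of the 8 libraries in turn (adjusted p up to 0.0583, 0.0756, 0.0727 and 0.0917). Without replicate 2 of BXPC3 at 5%, 5 genes of each list were lower. The replication count was 0 without replicate 2 of PANC1 at 5%, and the mitosis count was 0 or 1 without any other 1 library except replicate 1 of BXPC3 at 5% and replicate 2 of PANC1 at 5%. MKI67, the marker of cycling cells, was at 8.07 and 8.04 and then 8.05 and 7.95 in PANC1, and at 7.65 and 7.87 and then 7.97 and 7.71 in BXPC3 (difference -0.14 ± 0.13, adjusted p = 0.531). The cell cycle inhibitor gene CDKN1A had 0.38 ± 0.09 (adjusted p = 0.0274), a call lost without 6 of the 8 libraries in turn (adjusted p up to 0.0953).

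Among integrins, collagen receptors and focal adhesion genes, 5 were higher and 4 lower of 31. ITGB4, the laminin receptor subunit of hemidesmosomes (chr17:75721328-75757818), was at 6.22 and 6.19 in PANC1 at 5% and at 4.81 and 4.72 at 7.5%. The BXPC3 libraries were at 8.50 and 8.62 and then at 8.63 in both libraries. The difference was -1.52 ± 0.07 (adjusted p = 3.83e-05). ITGA3, another laminin receptor subunit, had -0.51 ± 0.07, and ITGA1, a collagen receptor subunit, had 0.80 ± 0.14. The ITGA1 difference was 0.45 on a log2(RPKM + 1) scale, and its call was lost in the fit over all 12 libraries (adjusted p = 0.0545). The 5 higher were 2 or 3 without any 1 library other than replicate 2 of BXPC3 at 5% and replicate 1 of PANC1 at 7.5%. The 4 lower were 2 without replicate 1 or 2 of BXPC3 at 7.5%, replicate 1 or 2 of PANC1 at 5% or replicate 1 of PANC1 at 7.5%. ITGB1, the common beta subunit (-0.13 ± 0.05, adjusted p = 0.139), and the hyaluronan receptor gene CD44 (-0.16 ± 0.05, adjusted p = 0.0690) were not called.

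Collagens and basement membrane genes had 9 lower and 3 higher of 22. COL1A1, a chain of type I collagen, rose from 7.72 and 7.75 to 8.48 and 8.71 in PANC1 and was at 3.47 and 3.38 and then 3.38 and 3.33 in BXPC3 (difference 0.93 ± 0.10, adjusted p = 0.00102). COL3A1, a chain of type III collagen, went the other way, from 3.49 and 3.58 to 2.51 and 2.86 in PANC1 and from 2.33 in both libraries to 2.44 and 2.54 in BXPC3 (difference -1.01 ± 0.17, adjusted p = 0.00697). The laminin chains LAMA5 (-0.65 ± 0.09) and LAMA3 (0.65 ± 0.10) also had opposite signs. The summed level of the 6 fibroblast markers measured, of 12 on the list, was 243 to 246 RPKM in PANC1 at 5% and 388 to 449 at 7.5%, and 22.4 to 24.3 in BXPC3. COL1A1 made up most of that sum and of its rise, while the other 2 tested markers, COL3A1 and ACTA2, were lower at 7.5% than at 5% in every PANC1 library. The part of other cells in these values was not tested.

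Matrix proteases and inhibitors had 6 higher and 3 lower of 20. MMP24, a membrane-bound protease, had 1.09 ± 0.18 and the protease inhibitor gene SERPINE2 1.02 ± 0.08, while the urokinase receptor gene PLAUR (-0.62 ± 0.12) and ADAMTS15 (-0.65 ± 0.09) were lower. MMP14, a collagen-cleaving membrane protease, was at 5.57 and 5.51 and then 5.24 and 5.38 in PANC1 and at 9.60 and 9.66 and then 9.66 and 9.62 in BXPC3 (difference -0.24 ± 0.07, adjusted p = 0.0504). Among matricellular and proteoglycan genes, with 4 higher and 7 lower of 20, the heparan sulphate carrier gene SDC2 (-1.34 ± 0.18) and the hyaluronan synthase gene HAS2 (-1.08 ± 0.16) were lower and LTBP2, an extracellular matrix protein gene, was higher (0.80 ± 0.08). The 7 lower were 2 to 4 without replicate 1 or 2 of BXPC3 at 7.5%, replicate 1 or 2 of PANC1 at 5% or replicate 1 of PANC1 at 7.5%.

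YAP and TEAD targets had 8 higher and 3 lower of 26, with a median difference of 0.12. ANKRD1, a muscle ankyrin repeat gene, was at -0.51 and -0.79 in PANC1 at 5% and at 1.16 and 1.34 at 7.5%. In BXPC3 it was at 4.29 and 3.82 and then 3.51 and 3.68. The difference was 2.36 ± 0.25 (adjusted p = 0.000977), but in PANC1 it reached 1 RPKM only in the 7.5% libraries, where it was higher, and on a log2(RPKM + 1) scale its difference was 1.47. It is not among the 10 highest above, since it stayed under 3 RPKM in PANC1. The secreted matricellular factor gene CCN1 had 0.49 ± 0.09 and CCN2 had 1.06 ± 0.24. CCN2 was at 8.45 and 8.44 and then 8.78 and 8.89 in PANC1 and at 2.36 and 1.69 and then 1.34 and 1.37 in BXPC3. The CCN2 call (adjusted p = 0.0230) was lost without 6 of the 8 libraries in turn (adjusted p up to 0.0767). The growth factor gene TGFB2 was lower (-0.68 ± 0.11), and the coactivator gene WWTR1 was not called (-0.14 ± 0.05, adjusted p = 0.127). The 3 lower were 1 without replicate 2 of PANC1 at 5%.

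Mechanosensitive channel genes had 1 higher and 2 lower of 11: the stretch-gated channel gene PIEZO1 had -0.23 ± 0.05 (adjusted p = 0.0268; lost without 6 of the 8 libraries in turn, adjusted p up to 0.0903), TRPM4 -0.42 ± 0.08 and LRRC8A 0.20 ± 0.06. The LRRC8A call, the only higher one, was lost without 7 of the 8 libraries in turn and in the fit over all 12 (adjusted p up to 0.135). The 2 lower were 4 without replicate 2 of BXPC3 at 5% and 1 without replicate 1 of BXPC3 at 5%, replicate 2 of BXPC3 at 7.5%, either PANC1 library at 5% or replicate 1 of PANC1 at 7.5%. TGF-beta and BMP pathway genes had 3 higher and 3 lower of 30. BMP4, a BMP ligand, rose from 3.24 and 3.33 to 4.40 and 4.35 in PANC1 and was at 4.33 and 4.64 and then 4.34 and 4.53 in BXPC3 (difference 1.15 ± 0.15, adjusted p = 0.00230). SMAD3, a TGF-beta mediator, had -0.37 ± 0.06.

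Mesenchymal genes had 6 lower and 1 higher of 12, with a median difference of -0.37, and 2 lower when all 12 libraries were fitted. VIM fell from 11.93 in both libraries to 11.69 and 11.65 in PANC1 and was at 5.17 and 5.08 and then 5.21 and 5.12 in BXPC3 (difference -0.30 ± 0.06, adjusted p = 0.0117), and its call was lost in the fit over all 12 libraries (adjusted p = 0.471) and also without the mean-variance trend. The 1 higher was 0 without any 1 library other than replicate 2 of BXPC3 at 5%. CDH1 was also lower in PANC1, at 4.86 and 4.84 and then 4.52 and 4.67, with a difference of -0.23 ± 0.08 (adjusted p = 0.107). The list of epithelial genes leaned the other way, with 7 higher and 2 lower of 28 and a median difference of 0.10. In PANC1 alone, 7 of them were called higher and 8 lower. FN1 had -0.44 ± 0.20 (adjusted p = 0.193). Keratin genes divided, with 3 higher and 3 lower of 11: KRT15 had -1.20 ± 0.07, KRT19 -0.70 ± 0.11 and KRT80 1.23 ± 0.15. The foregut factor genes FOXA1 (-0.95 ± 0.09) and GATA6 (0.92 ± 0.16) had opposite signs among 2 higher and 2 lower of 9. The 2 higher were 1 without any 1 library other than replicate 2 of PANC1 at 7.5%, and the 2 lower were 1 without replicate 1 or 2 of BXPC3 at 7.5%, either PANC1 library at 5% or replicate 2 of PANC1 at 7.5%.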

How the data were processed

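Poly-A RNA sequencing libraries of BXPC3 and PANC1 were used. The authors deposited log2 RPKM values for 16299 genes. Per the submitters' processing notes, HISAT2 2.1.0 and HTSeq were used with GRCh38 (hg38). The annotation, strand setting, log offset and gene lengths are not stated there. The sorted values of the libraries nearly coincide, as after quantile normalization, which removes changes shared by most genes. Depth is unknown, and 0 columns were left unmapped.

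Genes with at least 1 RPKM in 2 GelMA libraries of each line were fitted with limma 3.58.1 in R 4.3.3 (group means of 8 libraries, mean-variance trend, 4 residual degrees of freedom). The contrasts were 7.5% minus 5% GelMA in each line and the PANC1 effect minus the BXPC3 effect. Benjamini-Hochberg adjustment ran over 12817 genes, with calls at an adjusted p under 0.05. The fit was tested on simulated data. Positions are from GENCODE 29. Alternatives changed the scale, filter, libraries, trend, centring and replicate block.

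Members, lists and tests were chosen with earlier results of these data known. The rule named the 10 highest and 10 lowest called differences among genes whose highest group mean was at least 3 RPKM in each line, up to 4 genes per direction called oppositely in the lines, up to 5 called and 2 abundant uncalled members of each list described, and genes followed whatever their values: ISG15, IFIT1, CCN2, HMGCS1, CDKN1A, MKI67, CD44, MMP14, VIM, CDH1 and FN1. Chosen after their values were seen were ABCC3, ANKRD37, C15orf48, CA12, CCN1, CEBPB, COL5A1, CYP1B1, DDIT3, EPAS1, EPHB6, GPRC5A, GPX4, H19, HIF1A, IFITM1, MYADM, ODC1, PARD6B, PSAT1, SLC2A1, SLC7A5, SREBF2, TM4SF1, TNFRSF21, VEGFA, TIPARP and AHR. Some genes that the rule named are not reported here.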

Additional observations from a re-analysis of the deposited data

Results flagged for a closer look

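The change with GelMA percentage differed between the lines by a limma test of the difference itself, which called 1898 genes, 902 higher and 996 lower. Among genes whose highest group mean reached 3 RPKM in each line, the 10 lowest differences were AK4 (-3.80), CP (-3.15), AK4P3 (-3.09), CXCL2 (-2.88), MIR210HG (-2.87), PPP1R3G (-2.39), ALDOC (-2.38), ANGPTL4 (-2.05), ITPR1 (-2.05) and RF01972 (-2.02) on the log2 scale. The 10 highest were CYP1A1 (2.49), VIPR1 (2.22), SPNS2 (2.03), TNS4 (1.97), GDA (1.83), ATF3 (1.83), CEMIP (1.64), LINC00622 (1.58), FGFBP1 (1.54) and PARM1 (1.54). ANKRD1 (2.36) was also called but stayed under that level in PANC1. The same test called LGALS1 (-0.56), GDF15 (1.04), PIM1 (0.92) and GRHL3 (0.86), which were also called in opposite directions in the lines.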

How the results depend on the processing

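With 2 libraries a group, leaving out 1 leaves a single library that is assumed to vary like the other groups. Leaving out each library gave 989 to 2251 called differences against 1898, with 457 to 1105 higher and 528 to 1146 lower, 1756 to 3770 called genes in PANC1 against 3441, and 0 to 181 in BXPC3 against 16. The BXPC3 count was 25 with the filter met in either line or with no filter, and 0 in the fit over all 12 libraries, without the mean-variance trend and with either replicate block. With a replicate block within each line, 1212 differences were called, 559 higher and 653 lower. A block shared by both lines gave 1622. Same-numbered deviations correlated at -0.088 between the BXPC3 groups and 0.019 between the PANC1 groups. Such values cannot settle whether replicate numbers pair the samples. Of 171 named genes with a call, 126 kept it without each library in turn.

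Leaving out 1 library in turn changed the sign of 13 uncalled genes, with these ranges of the log2 difference: AXL -0.1085 to 0.0959, C15orf48 -0.0621 to 0.2062, CYC1 -0.0568 to 0.1164, EEF2 -0.0241 to 0.0675, FTH1 -0.0345 to 0.3356, HSPG2 -0.0258 to 0.2503, KRT8 -0.0608 to 0.1354, MCM7 -0.1758 to 0.0138, MT1F -1.0673 to 0.0597, RPS16 -0.0858 to 0.114, SDC1 -0.088 to 0.0111, SOX9 -0.0311 to 0.0062, TRPM7 -0.0785 to 0.0478. The cause was not tested. Unknown depth limits what can be said of low genes. AK4P3 (-2.45), TNS4 (1.52) and CYP1A1 (1.96) also had smaller differences on a log2(RPKM + 1) scale.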

Other observations

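CYP1A1 and CYP1B1, genes known to be induced through the aryl hydrocarbon receptor, both had higher differences, of 2.49 and 0.86 log2. TIPARP, another gene known as a target of that receptor, had a difference of 1.25. The receptor gene AHR itself had a difference of -0.35, a call lost without replicate 1 of BXPC3 at 7.5% or replicate 1 of PANC1 at 5% (adjusted p up to 0.0532 by limma). These 4 genes were set side by side after their values were seen.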
